A study of Mus musculus with 16 samples.

Results

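Wide H3K27me3 domains of young hematopoietic stem cells (HSCs), the source of every blood lineage, were examined for the genes they hold and for how much of each domain the other Polycomb peak lists cover. The domains were chosen by their width in the young H3K27me3 peak list, as regions over 2000 bp on chromosomes 1 to 19. This gave 2739 domains of 50640 young regions on these chromosomes, and of 63143 regions in the whole list. The width is therefore a description and not a finding, whereas the 20-month H3K27me3 list, both H2AK119ub1 lists, both H3K4me3 lists, the gene annotation and the DNA sequence did not enter the choice.

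The study compared HSCs of young (10-week-old) and aged (20-month-old) C57BL/6 mice by chromatin immunoprecipitation followed by sequencing (ChIP-seq). All groups were bone marrow cells sorted for Sca-1, c-kit and CD150 and against lineage markers, the receptor IL-7Rα, CD34, CD48 and Flt3. No treatment is named in the labels, and the marrow of several animals was pooled before sorting. By the labels, 8 groups of 2 libraries each (16 in all) stand for H3K27me3, H2AK119ub1, H3K4me3 and input at each age. The 6 peak lists used here hold 1 list per mark and age, each named as pooled. There is therefore no replicate spread, no difference between the lists was tested, and the ages cannot be told apart from the libraries. Near the start sites of 11 HSC marker genes, H3K4me3 was found at 8 genes at each age, with Slamf1 and Ly6a unlisted at both ages, and young H3K27me3 was listed at 0. H3K4me3 was listed at 0 of 5 T cell markers at both ages and at 1 of 6 granulocyte and macrophage markers, Csf3r, at both ages. It was listed at 1 of 5 B cell markers (Cd79b) in young HSCs and at 0 in aged HSCs, and at 1 of 4 markers of stroma or endothelium (Cxcl12) at both ages.

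Polycomb repressive complex 2, with EZH1 or EZH2 as its enzyme, places H3K27me3, a trimethylated lysine of histone H3. Polycomb repressive complex 1, with RING1A or RING1B as its enzyme, places H2AK119ub1, a ubiquitinated lysine of histone H2A. CBX proteins of complex 1 bind H3K27me3, and JARID2 of complex 2 binds H2AK119ub1, so the marks often lie over the same DNA. Broad H3K27me3 domains typically lie over CpG-rich genes for developmental regulators that a differentiated tissue keeps silent. In HSCs Polycomb proteins are known for holding down such genes and the senescence gene Cdkn2a.

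Windows of 300 bases illustrate the states that a stretch of such a domain can have. The windows below are from GRCm38 (mm10), plus strand, as RefSeq gives that assembly, with each CpG in capitals. The first pair lies in the widest domain, over Hoxc9, Hoxc10 and Hoxc11 (chr15:102946036-102979332). Its first window was covered by all 3 other Polycomb lists, overlaps the annotated non-coding RNA Gm27535, is 4467 bp away from a coding start site, and holds 15 CpGs. Its second window was listed for young H3K27me3 alone, lies between genes, holds 0 CpGs, and consists in large part of short repeats of TC and TG.
Hoxc, all lists, chr15:102949810-102950109: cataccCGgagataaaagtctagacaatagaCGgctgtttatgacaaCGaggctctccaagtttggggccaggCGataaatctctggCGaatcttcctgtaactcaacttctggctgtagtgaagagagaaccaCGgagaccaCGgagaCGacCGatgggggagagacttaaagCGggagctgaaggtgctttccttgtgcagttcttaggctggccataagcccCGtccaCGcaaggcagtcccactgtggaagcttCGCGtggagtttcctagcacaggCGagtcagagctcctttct
Hoxc, young H3K27me3 alone, chr15:102961255-102961554: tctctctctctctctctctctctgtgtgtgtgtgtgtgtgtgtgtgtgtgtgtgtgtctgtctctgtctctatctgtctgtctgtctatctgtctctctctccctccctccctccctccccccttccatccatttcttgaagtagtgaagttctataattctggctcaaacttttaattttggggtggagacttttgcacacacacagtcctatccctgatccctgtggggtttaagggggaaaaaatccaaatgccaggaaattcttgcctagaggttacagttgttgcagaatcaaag
The next pair comes from the second widest domain, over Hand2 (chr8:57309997-57342352). The window covered by all lists lies in an intron of the long non-coding RNA gene 5033428I22Rik and holds 4 CpGs, and the window listed for young H3K27me3 alone lies between genes and holds 7 CpGs. CpG number therefore had opposite orders in the 2 pairs.
Hand2, all lists, chr8:57336037-57336336: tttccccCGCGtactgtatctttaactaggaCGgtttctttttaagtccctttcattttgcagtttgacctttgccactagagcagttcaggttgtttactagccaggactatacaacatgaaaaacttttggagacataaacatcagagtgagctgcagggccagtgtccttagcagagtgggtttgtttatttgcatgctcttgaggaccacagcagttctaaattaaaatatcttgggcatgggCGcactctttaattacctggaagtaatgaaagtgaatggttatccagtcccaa
Hand2, young H3K27me3 alone, chr8:57326006-57326305: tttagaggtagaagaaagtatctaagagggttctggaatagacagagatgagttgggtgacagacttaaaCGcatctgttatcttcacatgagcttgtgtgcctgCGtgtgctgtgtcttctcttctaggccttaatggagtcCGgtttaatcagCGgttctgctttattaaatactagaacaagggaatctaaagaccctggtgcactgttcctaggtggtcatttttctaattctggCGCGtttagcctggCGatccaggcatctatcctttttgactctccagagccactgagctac
The last pair gives the central bases of the 2 widest domains with no base in any other Polycomb list. These lie in an intron of Asic2, an acid-sensing ion channel gene (chr11:81675473-81680260), and in an intron of Gldnos, the antisense transcript of the gliomedin gene Gldn (chr9:54280183-54284686). They hold 2 and 6 CpGs.
Asic2 intron, chr11:81677717-81678016: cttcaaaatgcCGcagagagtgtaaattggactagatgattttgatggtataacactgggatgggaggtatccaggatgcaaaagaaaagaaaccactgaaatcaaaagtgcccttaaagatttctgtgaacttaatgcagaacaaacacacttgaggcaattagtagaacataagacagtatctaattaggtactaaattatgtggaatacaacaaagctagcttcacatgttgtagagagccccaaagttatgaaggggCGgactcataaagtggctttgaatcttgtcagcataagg
Gldnos intron, chr9:54282285-54282584: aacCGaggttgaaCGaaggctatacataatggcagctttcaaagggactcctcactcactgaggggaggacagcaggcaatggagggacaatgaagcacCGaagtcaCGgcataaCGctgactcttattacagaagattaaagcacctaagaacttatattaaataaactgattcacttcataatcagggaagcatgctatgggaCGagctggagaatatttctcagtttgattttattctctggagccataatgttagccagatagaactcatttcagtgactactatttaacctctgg

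The domains had a median width of 2982 bp (95% interval 2913 to 3037 from order statistics), with quartiles of 2358.5 and 4238 bp and a maximum of 33297 bp. Regions of 2000 bp or less had a median of 394 bp. The domains made up 5.41% of the young autosomal regions and 30.2% of their length, 10.7 of 35.6 Mb. Of the domains, 490 were over 5000 bp, 107 over 10000 bp and 9 over 20000 bp. Every autosome held some, from 41 on chromosome 16 to 269 on chromosome 2. The limit of 2000 bp fell within a continuous range of widths. Just inside it, 2001 bp within Pax3 (chr1:78179402-78181402) were covered over 36.2% by 20-month H3K27me3, and 2001 bp on chromosome 11 (chr11:77896038-77898038) over 23.6%. Just outside it, 2000 bp at chr11:61583288-61585287 were covered over 44.8%, and 2000 bp within Syndig1l (chr12:84696440-84698439) over 11.2%. The median fold enrichment that the authors' peak caller gave was 3.62 in the domains and 3.09 in narrower regions, from the same list that chose them.

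The 20-month H3K27me3 list reached into most wide domains and covered part of their length. Of the 2739 domains, 2371 held at least 1 bp of the 20-month H3K27me3 list (86.6%, Wilson 95% interval 85.2 to 87.8), against 16.7% of all young autosomal regions. The overlap was 51.2% with 20-month regions of a −log10 q-value of 2 or more, and 33.3% with the list cut to the 2593 regions of highest q-value rank. A wider region has more room for an overlap of 1 bp, so the covered length is the more telling quantity. The 20-month list is shorter, with 8.42 Mb on the autosomes against 35.6 Mb in young HSCs, and young cover of the domains is complete by their choice. The 20-month list covered 4.17 Mb, or 38.9% of the domain length, against 8.60% of the length of narrower regions. The median domain was covered over 32.3% (quartiles 15.1 and 50.0%), and 687 domains (25.1%) were covered over at least 50%, against 5.82% of all young regions. The 20-month cover was broken up. It consisted of 2 or more separate 20-month regions in 1635 domains and of 23 in the Hoxc9 to Hoxc11 domain. Seen from the other side, 49.6% of the autosomal length of the 20-month list lay in these domains, and of the 279 autosomal 20-month regions over 2000 bp, 270 overlapped them.

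H2AK119ub1 was also listed in many of the domains, and over more of their length in the 20-month list than in the young list. The young H2AK119ub1 list overlapped 758 domains (27.7%, interval 26.0 to 29.4), against 2.54% of all young H3K27me3 regions, and covered 5.26% of the domain length. The 20-month H2AK119ub1 list overlapped 1726 domains (63.0%, interval 61.2 to 64.8), against 9.31% of all regions, and covered 25.0% of the length, with a median of 12.7% per domain. Narrower regions were covered over 0.578% and 3.93% of their length by these lists. The young H2AK119ub1 list is short, with 0.941 Mb on the autosomes against 7.19 Mb at 20 months. A larger part of it lay in the domains, 59.9% of its length against 37.3% of the 20-month list. With the 3 lists each cut to their 2593 regions of highest q-value rank, 20-month H3K27me3 covered 11.5%, 20-month H2AK119ub1 8.47% and young H2AK119ub1 5.26% of the domain length. A −log10 q-value of at least 2 in all 3 lists gave 20.5%, 15.0% and 1.68%. Sequencing depth is not given in the lists, and its part in these differences was not tested.

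**Figure D1:**
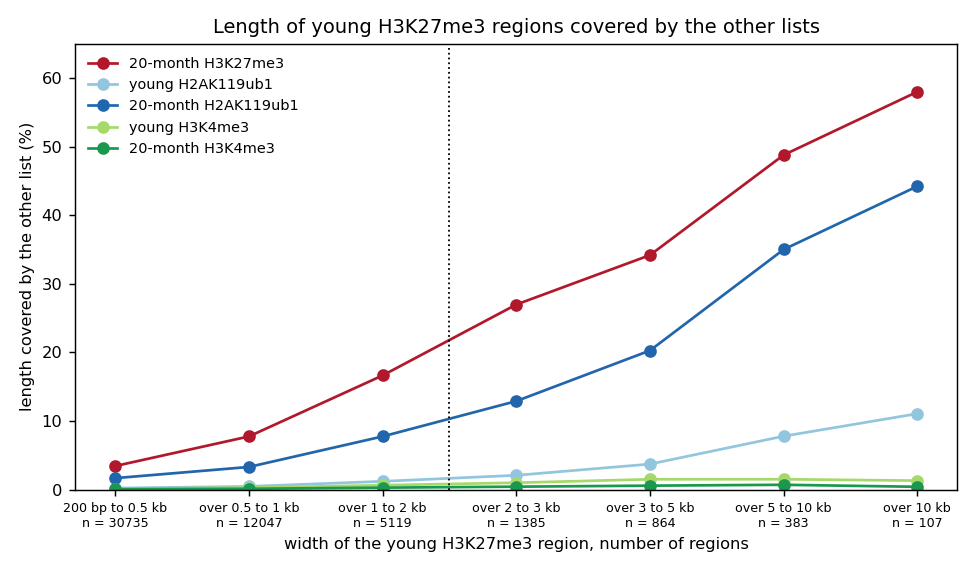
Share of the length of young H3K27me3 regions (y axis, %) covered by each of the other 5 lists, by the width of the young region (x axis, with the number of regions), and the dotted line marks the limit of 2000 bp. Cover by 20-month H3K27me3 goes from 3.44% in the narrowest to 58.0% in the widest class, and the 2 H3K4me3 lists stay near the axis.

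Cover by each of the 3 other Polycomb lists was larger in each wider class of young region, on both sides of the limit. The 20-month H3K27me3 list covered 3.44% of the length of regions up to 500 bp, 7.75% up to 1000 bp, 16.7% up to 2000 bp, 27% up to 3000 bp, 34.2% up to 5000 bp, 48.8% up to 10000 bp and 58.0% above. For 20-month H2AK119ub1 the narrowest and widest classes had 1.67% and 44.2%, and for young H2AK119ub1 0.215% and 11.1%. Young H3K4me3 had 1.51% up to 10000 bp and 1.31% above, and 20-month H3K4me3 0.703% and 0.412%. In the 107 domains over 10000 bp, 20-month H3K27me3 and 20-month H2AK119ub1 were each listed in 107, young H2AK119ub1 in 98 and young H3K4me3 in 48. Single domains still spread widely around these means. Domains with 0% cover by 20-month H3K27me3 reached 6920 bp, and the largest cover, 100%, was found among domains with no coding start site.

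**Figure D2:**
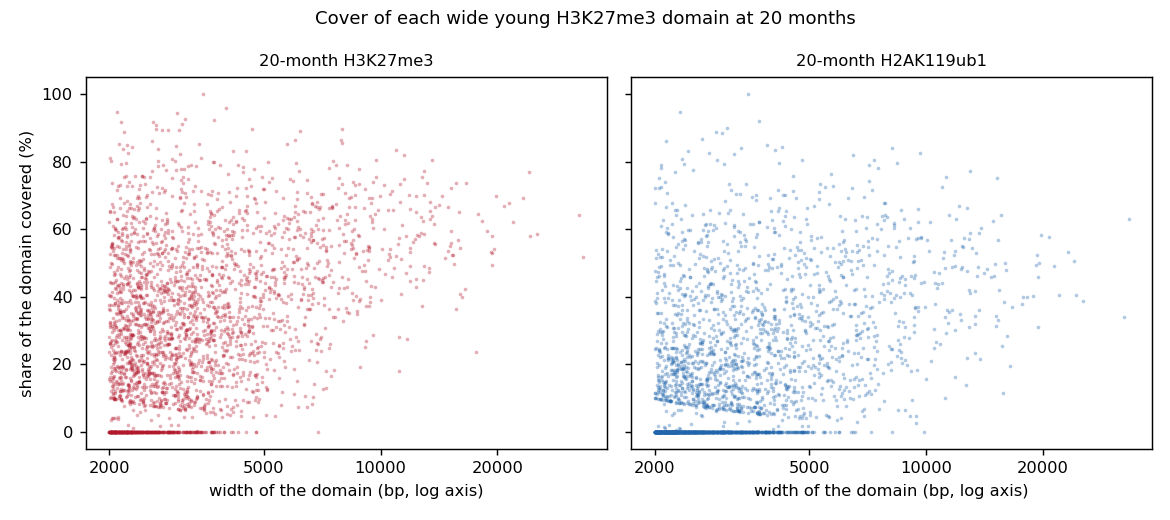
Each point is 1 of the 2739 domains, plotted by its width in young HSCs (x axis, bp, log scale) and the share of it that the 20-month list covers (y axis, %), for H3K27me3 on the left and H2AK119ub1 on the right. There are 368 domains at 0% on the left, with a median width of 2342 bp, and 1013 at 0% on the right.

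The domains were grouped by which of the 3 other Polycomb lists reached into them. All 3 lists were present in 676 domains (24.7%), which had a median width of 4910.5 bp and together held 4.23 Mb. Both 20-month lists without young H2AK119ub1 were present in 938 domains (34.2%), 20-month H3K27me3 alone in 711 (26.0%), and 20-month H2AK119ub1 alone in 90. Young H2AK119ub1 occurred without either 20-month list in 14 domains. None of the 3 was present in 242 domains (8.84%), with a median width of 2271 bp. A protein-coding start site lay in 36.8% of the domains with all 3 lists and in 10.7% of those with none. The CpG ratio (CpGs observed, divided by CpGs expected at that C and G content) had a median of 0.398 with all 3 lists and 0.216 with none. The young call was weaker in the domains with none, with a median −log10 q-value of 2.57 against 3.98 with all 3 lists. These groups also differ in width. A comparison of start sites or CpGs between them is therefore not one at equal width or equal strength of the young call.

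The lists were also compared base by base within the domains. Of the bases covered by young H2AK119ub1, 62.0% were covered by 20-month H3K27me3, and of those covered by 20-month H2AK119ub1, 59.0%, against 38.9% of all domain bases. Of the young H2AK119ub1 bases, 54.8% were in the 20-month H2AK119ub1 list, against 25.0% of all domain bases. Over the domain from edge to edge, each Polycomb list covered the middle more than the ends. With each domain split into 10 equal parts, 20-month H3K27me3 covered 29.0% of the first, 43.9% of the sixth and 30.3% of the last. The same parts had 18.8%, 28.6% and 18.8% for 20-month H2AK119ub1 and 3.22%, 6.48% and 3.39% for young H2AK119ub1. Cover by young H3K4me3 showed no such order, at 1.64%, 1.39% and 1.42%.

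**Figure D3:**
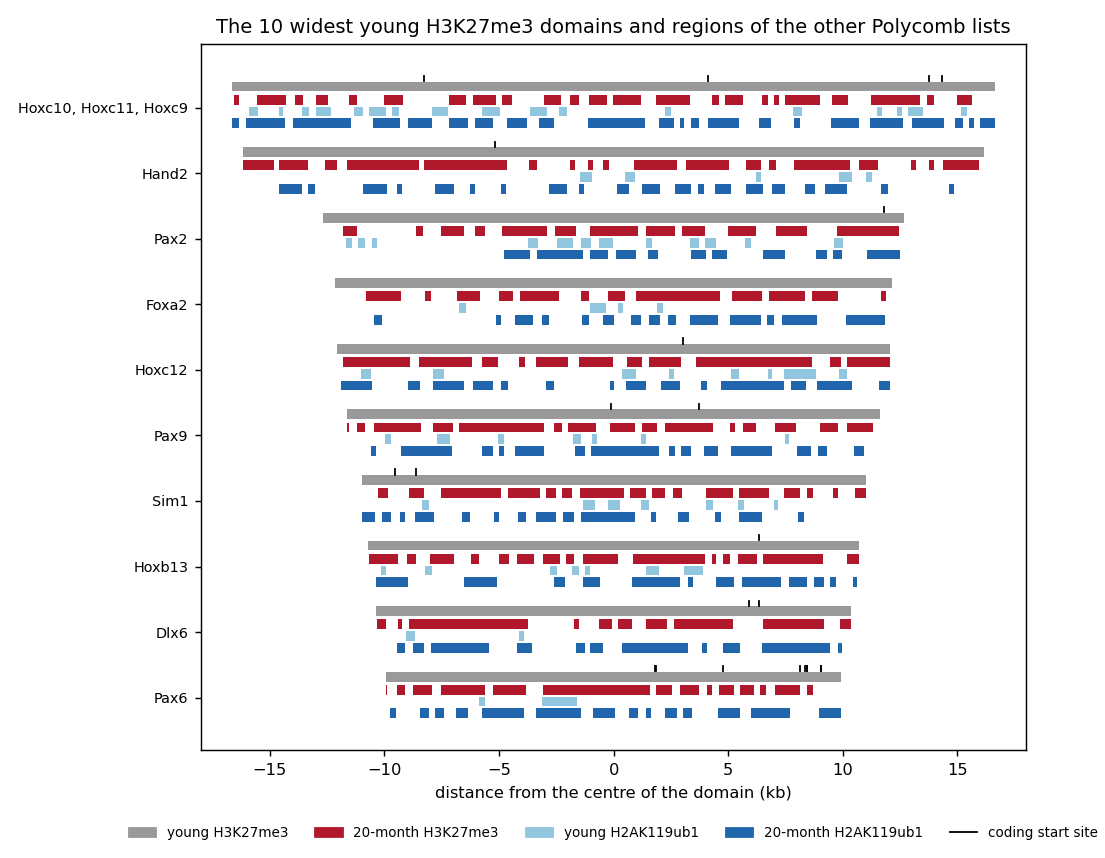
The 10 widest young H3K27me3 domains (grey, drawn to scale, x axis in kb from the domain centre) with the stretches covered by 20-month H3K27me3, young H2AK119ub1 and 20-month H2AK119ub1 in the colours given, and protein-coding start sites as ticks, where the domain named Foxa2 lies beside that gene's start site. In the Hoxc9 to Hoxc11 domain the 3 lists hold 23, 17 and 22 separate regions, and the Hand2 domain has long stretches of 20-month H3K27me3.

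The 10 widest domains lay at genes for transcription factors of the embryo. The Hoxc9 to Hoxc11 domain (33297 bp, body patterning genes) was covered over 51.7% by 20-month H3K27me3, 22.4% by young H2AK119ub1 and 62.9% by 20-month H2AK119ub1. It was the widest domain and also the one with the most H2AK119ub1 bases in both lists. The neighbouring Hoxc12 domain (24131 bp) was covered over 76.9%, 16.9% and 50.7% by the same 3 lists. In the Hand2 domain (32356 bp), at a regulator of heart and limb development, 20-month H3K27me3 covered 64.3%, young H2AK119ub1 5.95% and 20-month H2AK119ub1 34.0%. The domain at Pax2, a kidney and eye regulator, measured 25368 bp and was covered over 58.6%, 18.7% and 38.6%. The domain of 24314 bp at Foxa2, an endoderm regulator, overlapped the gene and ended 59 bp from its nearest start site. It was covered over 57.9% by 20-month H3K27me3. Another wide domain, of 3038 bp, held a Foxa2 start site and was covered over 34.9%. The other domains of the 10 were at Pax9 (tooth and thymus), Sim1 (hypothalamus), Hoxb13 (tail and prostate), Dlx6 (jaw and forebrain) and Pax6 (eye), with 62.3 to 69.9% covered by 20-month H3K27me3 and 40.6 to 58.2% by 20-month H2AK119ub1. Of the 10, the Dlx6 domain had the least young H2AK119ub1 (2.81%). By bases of young H2AK119ub1, the Gata4 domain (18817 bp, heart and endoderm) came after the Hoxc9 to Hoxc11, Pax2 and Hoxc12 domains, with 3886 bp.

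Extremes of the 20-month cover were found away from the widest domains. Among domains of at least 5000 bp, the largest share covered by 20-month H3K27me3 was 89.7% at Pax3 (7956 bp, neural crest and muscle regulator), followed by 89.0% at Onecut2 (liver and neurons), 86.3% in a domain 3650 bp from the nearest start site of Otx2 (forebrain) and 86.3% in a domain within Sox2ot, 1900 bp from Sox2 (neural stem cells). The Otx2 domain had 0 bp of young H2AK119ub1, and the other 3 had 486 to 925 bp. At the other end, the widest domain with no base of 20-month H3K27me3 (6920 bp) lay at the non-coding genes Gm12811 and 9630013D21Rik, 5037 bp from Cdkn2c. It held 464 bp of 20-month H2AK119ub1, 465 bp of young H3K4me3 and 286 bp of 20-month H3K4me3. The Eya4 domain (4787 bp, a regulator of sensory organ development) also had no 20-month H3K27me3, with 200 bp of 20-month H2AK119ub1, 224 bp of young and 307 bp of 20-month H3K4me3. The Asic2 and Gldnos domains, whose sequences are given above, had 0 bp of every other list. Their −log10 q-values in the young list were 2.45 and 2.48, against a median of 3.25 over all domains. The widest domains without a coding start site, after the one of 24314 bp at Foxa2, lay at C130071C03Rik (17788 bp), at Nr2f1 (16639 bp) and at Barhl2 (16500 bp). They were covered over 64.3%, 73.7% and 42.3% by 20-month H3K27me3. Nr2f1 and Barhl2 encode regulators of neural development.

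Most domains did not hold a protein-coding start site. One or more lay in 750 domains (27.4%), against 3.48% of all young regions. A further 528 domains had one within 1000 bp outside, and 193 lay 100 kb or more from any. A coding gene body overlapped 1752 domains, and 987 lay outside coding genes. Start sites of 20 microRNA genes lay inside, among them Mir196a-2 in the widest domain, Mir615, Mir124a-2, Mir9-2, Mir34b and Mir34c. The domains of the 20 were covered by 20-month H3K27me3 over 0% (Mir6405, Gm44489) to 55.1% (Gm44463). The share over all microRNA genes, and gene body counts over all young regions, are not given here. Domains with a coding start site had a median width of 3648 bp, against 2617 to 2911 bp in the classes without one, and were covered over 42.2% by 20-month H3K27me3 and 31.8% by 20-month H2AK119ub1. Those without were covered over 37.2% and 21.5%. Domains 100 kb or more from a start site had 29.6% and 10.5%.

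**Figure D4:**
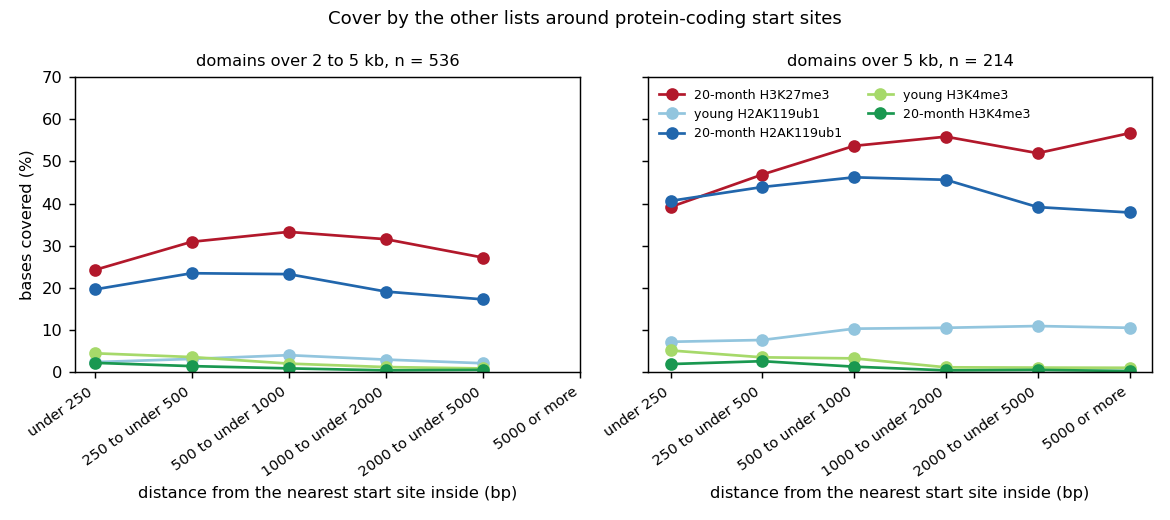
Share of bases covered by each list (y axis, %) by distance from the nearest protein-coding start site inside the domain (x axis, bp), for domains over 2000 and up to 5000 bp (left, 536) and over 5000 bp (right, 214). In both panels 20-month H3K27me3 is lowest in the first bin, 24.2% and 39.2%, and young H3K4me3 is highest there.

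Around these start sites, 20-month H3K27me3 cover was lowest and young H3K4me3 cover highest in the nearest bin. In domains over 5000 bp, 20-month H3K27me3 covered 39.2% of the bases under 250 bp from a start site, 46.9% of the next 250 bp and 53.7% from 500 to 1000 bp. In domains up to 5000 bp these shares were 24.2%, 30.9% and 33.3%. Both H2AK119ub1 lists were also lower under 250 bp than from 500 to 1000 bp in both width groups, but the nearest bin was not always their lowest. Pooled over both width groups, the nearest bin had the lowest cover for 20-month H3K27me3 (29.1%), 20-month H2AK119ub1 (26.5%) and young H2AK119ub1 (3.93%). In the wider domains 20-month H2AK119ub1 covered 40.6% under 250 bp, 46.2% from 500 to 1000 bp and 37.9% at 5000 bp or more, and young H2AK119ub1 7.17%, 10.3% and 10.5%. In the others, 20-month H2AK119ub1 covered 19.6% under 250 bp, 23.2% from 500 to 1000 bp and 17.2% at 2000 bp or more, and young H2AK119ub1 2.35%, 3.99% and 2.07%. Young H3K4me3 covered 5.11% under 250 bp and 1.11% from 1000 to 2000 bp in the wider domains, and 4.44% and 1.17% in the others. For 20-month H3K4me3 in the wider domains, the share was 1.88% under 250 bp and 2.56% in the next 250 bp. The split by width was chosen after the pooled values were seen.

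H3K4me3, the mark of active promoters, was listed in a minority of the domains. The young H3K4me3 list overlapped 377 domains (13.8%, interval 12.5 to 15.1), against 1.43% of all young H3K27me3 regions, and covered 1.32% of their length. The 20-month H3K4me3 list overlapped 197 (7.19%, interval 6.28 to 8.22), against 0.723%, and covered 0.538%. With a coding start site inside, 25.5% of domains overlapped young H3K4me3, and without one 9.35%. Only 0.789% of the young H3K4me3 bases in the domains were also in the young H2AK119ub1 list, although that list covered 5.26% of all domain bases. The share was 1.66% for the 20-month H3K4me3 bases. In the 20-month H2AK119ub1 list, which covered 25.0% of all domain bases, lay 41.6% of the young and 45.4% of the 20-month H3K4me3 bases. These shares rest on 0.142 Mb of young and 0.0576 Mb of 20-month H3K4me3. Of these bases, only 0.00112 Mb and 0.000955 Mb were also in the young H2AK119ub1 list. No difference between these shares was tested. Bases under young H3K4me3 had a CpG ratio of 0.608, against 0.365 in the rest of the domains.

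In sequence, the domains were richer in CpG than the narrower regions of the same list. Their median CpG ratio was 0.328 (quartiles 0.233 and 0.435), against 0.186 in regions of 2000 bp or less. Pooled over bases, the ratio was 0.369 in the domains and 0.194 over chromosomes 1 to 19. The median GC content was 48.4% against 46.0% in narrower regions. Domains covered over at least 50% by 20-month H3K27me3 had a median CpG ratio of 0.375, and those not covered 0.245. Their median widths were 3949 and 2342 bp, and 29.0% and 17.9% held a coding start site. The comparison is therefore not one at equal width. Within domains the order of the CpG ratios did not hold base by base. Bases covered by 20-month H3K27me3 had a ratio of 0.357 and the remaining bases 0.377. Bases covered by young H2AK119ub1 had 0.336, and those covered by 20-month H2AK119ub1 0.415.

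The domains held start sites of 732 of 20698 protein-coding genes on these chromosomes (3.54%), and 47 genes lay wholly inside a domain. Of the 732 genes, 230 (31.4%) had a start site covered by 20-month H3K27me3, 218 (29.8%) by 20-month H2AK119ub1, 34 (4.64%) by young H2AK119ub1 and 52 (7.10%) by young H3K4me3. Over all coding genes on these chromosomes, the shares were 2.05%, 2.92%, 0.237% and 8.93%. Genes of 6 lists of developmental transcription factors made up 150 of the 732 (20.5%). By list, from 35.4% (FOX, SOX, ZIC and GATA) to 88.9% (PAX) of the members lay inside, against 3.54% of all coding genes. The median domain of the 150 genes was covered over 52.7% by 20-month H3K27me3, against 29.5% for the other 582 genes. Median domain widths of the 6 lists went from 4510 bp (bHLH) to 14521 bp (HOX), against 3648 bp for all domains with a coding start site. Cover was larger in wider regions, so this contrast is not one at equal width.

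**Figure D5:**
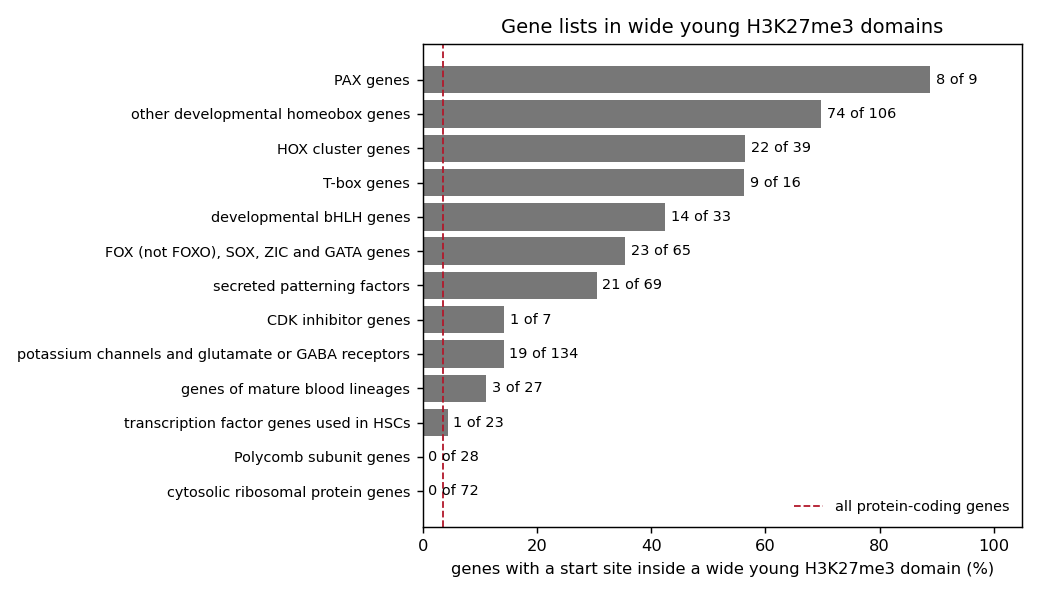
Share of the genes of each list with a start site inside a wide young H3K27me3 domain (x axis, %), with the number inside of the list's members beside each bar, and the dashed line at 3.54% for all protein-coding genes. Lists of developmental regulators lie above 30%, and the Polycomb and ribosomal protein lists are at 0.

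Genes that pattern the body axis and organs were the most frequent. HOX genes, which set positional identity along the body axis, lay inside for 22 of 39. They were unevenly spread over the clusters, with 9 of 9 Hoxc, 7 of 9 Hoxd, 3 of 11 Hoxa and 3 of 10 Hoxb genes. Hoxa9, a HOX gene used in blood stem cells, was among those in no young H3K27me3 region at its start. Of other developmental homeobox genes, 74 of 106 lay inside, the widest domains being at Dlx6, Otp and Tlx1. The Otp domain (19417 bp, hypothalamic neurons) was covered over 53.0% by 20-month H3K27me3, and the Tlx1 domain (19389 bp, spleen formation) over 49.5%, with the Tlx1 start site listed for H2AK119ub1 at both ages. PAX genes lay inside for 8 of 9, Pax4 being the exception, with a median cover of 63.9% by 20-month H3K27me3. T-box genes, regulators of mesoderm, heart and limb, lay inside for 9 of 16. The widest of their domains were at Tbx20 (15982 bp, 54.4% covered by 20-month H3K27me3), Tbx5 (15904 bp, 65.1%) and Tbx15 (12954 bp, 77.2%).

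Of developmental bHLH genes, 14 of 33 lay inside, with Hand2, Neurod1 (8644 bp, neurons and pancreatic islets) and Hand1 (8031 bp, heart and placenta) in the widest domains. The Neurod1 and Hand1 domains were covered over 52.6% and 52.9% by 20-month H3K27me3. FOX, SOX, ZIC and GATA genes lay inside for 23 of 65. Their widest domains were at Gata4, at Zic1 and Zic4 together (18234 bp, 62.4% covered by 20-month H3K27me3) and at Sox2 (14106 bp, 67.2%). Secreted patterning factors, the Wnt, Hedgehog, FGF and BMP ligands with their inhibitors, lay inside for 21 of 69, in domains with a smaller 20-month cover. Their median was 27.7%, with 19.2% at Wnt5a (8851 bp), 26.3% at Wnt10a (5602 bp) and 30.9% at Wnt3 (5370 bp). Potassium channels and glutamate or GABA receptors, which act in excitable cells, lay inside for 19 of 134, with a median cover of 25.9% by 20-month H3K27me3. Their widest domains were at Kcna1 (6910 bp), Kcnc2 (5294 bp) and Kcnc4 (4447 bp). The domains of these lists also differ in width, with a median of 14521 bp for HOX genes and 2963 bp for channels.

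Young H2AK119ub1 overlapped 27.7% of all domains, and most domains of several of these lists. It was listed in 18 of 19 domains with a HOX start site, 64 of 82 with another homeobox gene, 8 of 10 with a PAX gene, 11 of 11 with a T-box gene and 18 of 25 with a FOX, SOX, ZIC or GATA gene. It was listed in 5 of 14 with a bHLH gene, 5 of 21 with a patterning factor and 3 of 20 with a channel or receptor gene. The 20-month H2AK119ub1 list reached 19 of 19 HOX, 13 of 14 bHLH, 19 of 21 patterning factor and 11 of 20 channel domains, against 63.0% of all domains. The domains of these lists differ in width, as given above, and the part of width in these counts was not tested.

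Few genes of the blood system lay inside, but their shares were not below the 3.54% of all coding genes. A gene counts as inside by a start site, and Erg, Pax5, Gata3, Ebf1 and Cdkn2a did not lie wholly in a domain. Of 23 transcription factor genes used in HSCs, 1 lay inside (4.35%), Erg, an ETS factor required for HSC maintenance. Its domain of 4483 bp (chr16:95582284-95586766) held only 1 end of the gene (chr16:95359169-95586593), with a start site. The domain was covered over 28.8% by 20-month H3K27me3, 8.45% by young and 42.2% by 20-month H2AK119ub1. It held 0 bp of H3K4me3 at either age. Of 27 genes of mature blood lineages, 3 lay inside (11.1%), all encoding lymphoid regulators, of which Pax5 and Gata3 are also counted in the PAX and GATA lists. Pax5, the B cell commitment factor, lay in a domain of 15676 bp covered over 36.5% by 20-month H3K27me3. Gata3, a T cell regulator, lay in 9691 bp covered over 42.9%, with 1153 bp of young and 656 bp of 20-month H3K4me3. Ebf1, an early B cell factor, lay in 6658 bp covered over 67.4%, with 305 bp of young and 292 bp of 20-month H3K4me3. Of 7 CDK inhibitor genes, which restrain the cell cycle, 1 lay inside, Cdkn2a, with start sites in 2 domains. The wider, of 12903 bp, was covered over 62.4% by 20-month H3K27me3, 17.0% by young and 42.0% by 20-month H2AK119ub1. No Cdkn2a start site inside was itself covered by 20-month H3K27me3, whereas 20-month H2AK119ub1 did cover a start site. Of 28 Polycomb subunit genes and of 72 ribosomal protein genes, 0 lay inside, beside the share of 3.54% over all coding genes.

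The domains were often neighbours. With gaps of up to 10 kb bridged, 1448 domains (52.9%) fell into 493 groups of 2 or more, so they are not independent of each other. The largest group was the Hoxc cluster, with 19 domains of 159546 bp in all (chr15:102888023-103071676), covered over 50.2% by 20-month H3K27me3, 15.9% by young and 42.8% by 20-month H2AK119ub1. The group at Pax2 had 16 domains, covered over 46.3% by 20-month H3K27me3. The group at Evx2 and the Hoxd genes had 13 domains of 103532 bp, covered over 57.2%.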

How the data were processed

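HSCs were cross-linked, chromatin was cut with micrococcal nuclease and sonication, and immunoprecipitated DNA was sequenced by the authors. Reads were aligned to mm10 with Bowtie2, and the submitters' processing notes name MACS2 2.2.6. The deposited lists give, for each region, a fold enrichment over background (a linear ratio) and the −log10 of its p-value and of its q-value, as the authors' peak caller wrote them, of which the p-value was not used. For the broad marks these are averages over a region. Broad calling joins nearby enriched stretches, so a wide region can hold stretches with little signal of their own. Region names in the broad lists carry a single library number, so whether both libraries were pooled into them is unknown. Read depth is not given in the lists, and the length of a list may depend on it.

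Regions on chromosomes 1 to 19 over 2000 bp in the young H3K27me3 list were taken, and the bases covered by each other list were counted (overlap of at least 1 bp) in Python 3.11.15 with numpy 2.4.6 and pandas 2.3.3. The interval code returned the right cover in 300 of 300 simulated cases. Genes are from GENCODE M21, and bases from RefSeq GRCm38.p6. Wilson 95% intervals on shares cover counting error over neighbouring regions only, not animals or libraries. Named domains are the 10 widest, 4 each by the extremes described, and the 2 on each side of the limit. Named genes lie in these, or in the 3 widest domains of a gene list, or are all members where 5 or fewer lay inside. Hoxa9 and Pax4 were named after their state was seen. The domains and gene lists were chosen with earlier results of these data known. Other width limits, joining, q-value and list-size limits were tried. The check of erythroid markers is not reported here.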

Additional observations from a re-analysis of the deposited data

Results flagged for a closer look

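Chromosome X, left out of the domains, also held young H3K27me3 regions over 2000 bp. There were 48 of them, 0.384% of 12502 young regions on that chromosome, with a median width of 2773 bp and a maximum of 5555 bp. The 20-month H3K27me3 list overlapped 39 of the 48 and covered 28.1% of their length, and the young and 20-month H2AK119ub1 lists covered 1.16% and 12.4%. They stood out as signal in data outside the comparisons, and no test was possible.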

How the results depend on the processing

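No paired analysis was possible because there is only 1 list, named as pooled, for each mark at each age. For the same reason no replicate could be left out. Adding chromosome X changed none of the 6 main values beyond their counting error, and the young H2AK119ub1 value is the same by construction with lists of equal number. All other alternatives moved the values. A width limit of 1000 bp gave 7858 domains, of which 59.7% overlapped 20-month H3K27me3, with 30.1% of the length covered by 20-month H3K27me3, 3.66% by young and 18.2% by 20-month H2AK119ub1, and a coding start site in 15.4%. A limit of 5000 bp gave 490 domains and 99.8%, 52.2%, 9.01%, 38.4% and 43.7% for the same quantities. Joining young regions within 1000 bp gave 5873 domains and 62.2%, 20.9%, 2.29%, 11.9% and 31.1%. Keeping only regions of the other lists with a −log10 q-value of 2 or more gave an overlap of 51.2% and cover of 20.5%, 1.68% and 15.0%. Cutting those lists to 2593 regions each gave an overlap of 33.3% and cover of 11.5% and 8.47% for the 20-month lists. Asking for at least 50% of the domain left 25.1% overlapping 20-month H3K27me3. Counting start sites within 1000 bp of a domain gave 46.7% with one. Under each alternative that gives these values, 20-month H3K27me3 covered more length than 20-month H2AK119ub1, and that list more than young H2AK119ub1.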
